A study of Mus musculus with 21 samples.

Results

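The 6 genes described here belong to the cadherin superfamily of calcium-dependent adhesion molecules: *Cdh1* (E-cadherin), *Cdh2* (N-cadherin), *Cdh7*, *Cdh11*, *Cdh19* and *Celsr1*. They were chosen by name from the gene symbols of 3 tables of RNA sequencing values, which list 12404 genes in all. The choice was made with earlier results of these data known. The table of reprogramming cells grown with vitamin C lists 5 of the 6 genes among 12021 (all but *Cdh19*). The table of reprogramming cells grown without it lists all 6 among 10723. The table of fibroblasts lists 3 (*Cdh2*, *Cdh11* and *Cdh19*) among 11152. Only *Cdh2* and *Cdh11* are in all 3.

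The study profiled mouse embryonic fibroblasts (MEFs) and fibroblasts on the way to induced pluripotent stem cells, after retroviral constructs that act on DNA methylation or on p53. The MEFs were of the ICR strain, at passage 2, from 13.5-day embryos. The reprogramming cells, called SKOM cells, carried retroviruses for Sox2, Klf4, Oct4 and c-Myc and were harvested on day 5, in stem cell medium with LIF and with vitamin C (Vc+) or without it (Vc-). Within each medium there were 3 libraries with Tet1CD (Tet1CD alone, Tet1CD+Dnmt1, Tet1CD+shDnmt1) and 4 without it (Dnmt1, shDnmt1, shp53+shDnmt1 and the control). The MEF table holds Tet1CD, Dnmt1, shDnmt1, shp53, shp53+shDnmt1 and the control. It also holds a further library labelled 5C with the control constructs. The column header of that library adds day 4, and the labels do not say what 5C means. An infection time of 48 h is recorded for every library. Tet1CD is named for Tet1, a dioxygenase that turns 5-methylcytosine into 5-hydroxymethylcytosine, the first step of active DNA demethylation. Dnmt1 is the maintenance DNA methyltransferase, shDnmt1 a hairpin against it and shp53 a hairpin against p53 (gene *Trp53*). The control constructs are Flag, named for an epitope tag, and shLuc, a hairpin named for luciferase. The reprogramming libraries were given the same 4 factors in every group, but the RNA levels of these factors were not compared between groups. No step that sorted cells is given, so each value is an average over a culture. Each combination was sequenced once per setting, and nothing in the labels says which libraries came from separate embryos or cultures, so p-values measure the spread between these libraries only.

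Classical cadherins hold neighbouring cells together through the binding of like molecules, and their intracellular tails bind catenins that link the junction to actin. Epithelial cells use E-cadherin, whereas fibroblasts and other mesenchymal cells use N-cadherin and cadherin-11. Loss of E-cadherin with gain of N-cadherin is called the cadherin switch and marks the epithelial-to-mesenchymal transition. Reprogramming of fibroblasts runs through the reverse, a mesenchymal-to-epithelial transition, in which E-cadherin appears early. Cdh7 and Cdh19 are less studied classical cadherins known from neural crest and nervous tissue, Cdh19 mainly from Schwann cell precursors. Celsr1 is an atypical cadherin of the planar cell polarity system, which orients cells within an epithelial sheet.

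In the files, which use the mouse build mm10, *Cdh1* (ENSMUSG00000000303) lies at chr8:106603351-106670246 on the plus strand and *Cdh11* (ENSMUSG00000031673) on the same chromosome at chr8:102632995-102785111 on the minus strand. *Cdh2* (ENSMUSG00000024304) lies at chr18:16588877-16809246 on the minus strand, *Cdh19* (ENSMUSG00000047216) at chr1:110888326-110977363 on the minus strand and *Celsr1* (ENSMUSG00000016028) at chr15:85898758-86033777 on the minus strand. The row of *Cdh7* (ENSMUSG00000026312) is given for a short transcript at chr1:109982431-109995955 on the plus strand, which has 5 exons and a coding sequence of 76 codons and covers 8.57% of the annotated gene. Whether its value counts the whole gene or that transcript is not given in the sources used here.

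*Cdh7* is the member listed at 0 in every Vc+ library with Tet1CD, and the region around its RefSeq start sites is shown for that reason. The RefSeq promoter table (GRCm38.p6) holds 3 windows of 300 bases for it, each from 250 bases before to 50 bases after a start site. The windows hold 18, 19 and 4 CpG dinucleotides, against a median of 7 over all 32851 windows, and 29.7%, 28.1% and 68.6% of all windows hold at least as many. Each of the 3 holds CAGGTG once and its reverse complement CACCTG not at all; CAGGTG on either strand is in 20.2% of all windows. This is an E-box sequence, the kind that Snail and Zeb repressors are known to bind at the E-cadherin promoter. Binding at *Cdh7*, and any link of the motif to its values, was not tested. The stretch below is chr1:109982680-109982899, the 220 bases before the first RefSeq start site, on the plus strand. It begins at the base after exon 1 of the transcript whose value is listed (chr1:109982431-109982679), so it lies downstream of that transcript's own start. It holds 9 CpG, and the capitals mark CAGGTG, which begins 24 bases before the start site.

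Cdh7 stretch before the first RefSeq start site: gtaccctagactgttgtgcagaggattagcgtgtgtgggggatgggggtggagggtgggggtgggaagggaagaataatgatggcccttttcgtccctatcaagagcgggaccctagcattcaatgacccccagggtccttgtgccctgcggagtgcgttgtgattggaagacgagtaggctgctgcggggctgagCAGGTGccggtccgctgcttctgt

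The labels were checked on the targeted genes. In Vc+ cells *Tet1* ran from 2503 to 3129 where Tet1CD was delivered, against 41 to 88 elsewhere, and in Vc- cells from 2140 to 2632 against 11 to 19. *Tet1* is not listed for MEFs, so the Tet1CD label there could not be checked in this way. *Trp53* was lowest in the shp53 libraries of every table, with 157 and 186 in MEFs against 1008 in the MEF control. *Dnmt1* was lower in every library with shDnmt1 alone than in its control (208 against 957 in MEFs, 1154 against 2346 in Vc+ and 527 against 984 in Vc-). The libraries labelled Dnmt1 had about the control's level, with 975 against 957 in MEFs, 2381 against 2346 in Vc+ and 1001 against 984 in Vc-. With Tet1CD, *Dnmt1* was lower than in the control in every library: in Vc+ it had 1080 with Tet1CD, 1224 with Tet1CD+Dnmt1 and 655 with Tet1CD+shDnmt1, in Vc- 967, 778 and 437 in the same order, and in MEFs 458. The Tet1CD and Tet1CD+Dnmt1 libraries of Vc+ were thus near the shDnmt1 level. No direction below is read as an effect of more Dnmt1 RNA, and the part of lower *Dnmt1* in the Tet1CD effects was not tested. The median gene had a value of 203 to 208 in the MEF libraries, 226 in the Vc+ libraries and 180 in the Vc- libraries. The authors had normalized the values within each table, so depth is unknown and levels of different tables are not on a common scale. Every listed gene had a value of at least 32 in 2 or more libraries of its table. Some genes reached this level in 2 or more libraries of 1 arm, with or without Tet1CD, and in fewer than 2 of the other. Such a gene is called listed through 1 arm only. The listing itself favours a difference between its arms, so its values are given without a test. Through the Tet1CD libraries only, 423 genes were listed in Vc+ and 182 in Vc-. Through libraries without Tet1CD only, 539 and 299 were listed. The shares of all genes called below include such genes.

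In SKOM cells Tet1CD went with less E-cadherin RNA in both media. In Vc+ cells *Cdh1* had values of 115 with Tet1CD, 107 with Tet1CD+Dnmt1 and 125 with Tet1CD+shDnmt1, against 249 with Dnmt1, 296 with shDnmt1, 293 with shp53+shDnmt1 and 193 in the control. In Vc- cells it had 79 with Tet1CD, 38 with Tet1CD+Dnmt1 and 46 with Tet1CD+shDnmt1, against 135 with Dnmt1, 118 with shDnmt1, 150 with shp53+shDnmt1 and 98 in the control. The libraries with and without Tet1CD did not overlap in either medium, and the Tet1CD library without a Dnmt1 construct lay nearest to the other arm in Vc-. As means over libraries that differ in the other constructs, *Cdh1* was 116 ± 9.02 with Tet1CD (SD, n = 3) and 258 ± 48.2 without it (n = 4) in Vc+, and 54.3 ± 21.7 with it and 125 ± 22.4 without it in Vc-. Fitted over the 14 SKOM libraries with additive terms for medium and constructs (limma on log2(value + 5), 8 residual degrees of freedom, Benjamini-Hochberg adjustment over 10711 genes), *Cdh1* fell by 1.06 ± 0.16 (SE) with Tet1CD, with an adjusted p of 0.000461. In the same comparison 20.3% of all genes tested rose and 24.9% fell at an adjusted p under 0.05, so a member that passes is not rare among genes.

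The *Cdh1* difference was of like size in both media. Fitted within each table (2 residual degrees of freedom), the Tet1CD effect was -1.04 ± 0.13 in Vc+ (limma, adjusted p = 0.00204) and -1.09 ± 0.24 in Vc- (adjusted p = 0.0321). Its difference, Vc+ minus Vc-, was 0.05 ± 0.32 with a 95% interval from -0.66 to 0.76 (adjusted p = 0.93), which leaves room for a difference in either direction. *Cdh1* was lower with Tet1CD in 6 of 6 pairs of libraries matched on medium and Dnmt1 construct; an exact two-sided permutation test by sign flips gave p = 0.03125, the smallest that 6 pairs allow. The Vc- pair without a Dnmt1 construct differed least, by -0.29. The Vc- call rests on single pairs: without the Dnmt1 or the Tet1CD+Dnmt1 library the effect was -0.78, and without the shDnmt1 or the Tet1CD+shDnmt1 library -0.999, in each case with an adjusted p between 0.160 and 0.244.

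**Figure D1:**
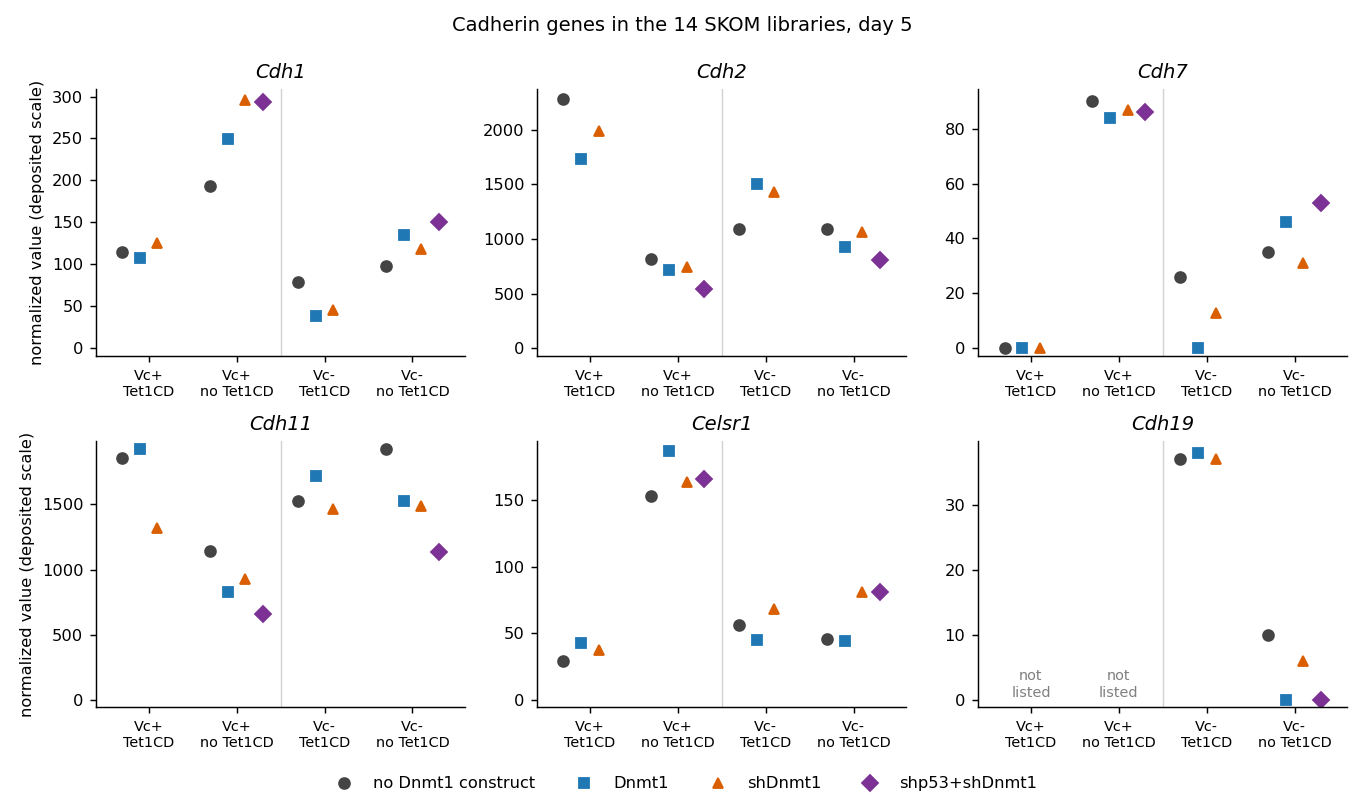
Values of the 6 cadherin genes on the deposited, within-table normalized scale in the 14 SKOM libraries, with 1 point per library; each panel has its own axis, Vc+ on the left, and marker shapes for the Dnmt1 and p53 constructs. *Cdh1* is lower with Tet1CD in both media, *Cdh7* is at 0 in all 3 Tet1CD libraries of Vc+, and *Cdh2*, *Cdh11* and *Celsr1* separate by Tet1CD in Vc+.

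N-cadherin moved the other way, and far more in vitamin C. In Vc+ cells *Cdh2* had 2284 with Tet1CD, 1730 with Tet1CD+Dnmt1 and 1992 with Tet1CD+shDnmt1, against 713 with Dnmt1, 742 with shDnmt1, 541 with shp53+shDnmt1 and 817 in the control. In Vc- cells it had 1095 with Tet1CD, 1506 with Tet1CD+Dnmt1 and 1428 with Tet1CD+shDnmt1, against 923 with Dnmt1, 1063 with shDnmt1, 804 with shp53+shDnmt1 and 1095 in the control. The arms were far apart in Vc+ and touched in Vc-, where the Tet1CD library and the control had the same value. *Cdh2* rose by 1.39 ± 0.09 on the log2 scale in Vc+ (limma, adjusted p = 0.000331; 20.7% of 12021 genes rose and 23.6% fell). In Vc- the effect was 0.38 ± 0.12 and did not pass (adjusted p = 0.0868; 7.25% of 10722 genes rose and 7.38% fell). The difference itself passed, at 1.01 ± 0.17 (adjusted p = 0.00566; 8.57% of genes had a higher and 8.28% a lower effect in Vc+). Over both media the effect was 0.88 ± 0.18 (limma, adjusted p = 0.0028), whereas the exact sign-flip test over pairs gave p = 0.0625, with 5 pairs higher and 1 equal. Without the Vc- control or the Vc- Tet1CD library the Vc- effect was 0.56 and passed, with adjusted p values of 0.00543 and 0.0055 (limma).

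Set against each other within a library, the 2 genes describe the switch. The quantity log2(*Cdh2* + 5) minus log2(*Cdh1* + 5) was 3.94 to 4.25 in Vc+ libraries with Tet1CD (mean 4.05) and 0.87 to 2.05 in those without (mean 1.43). In Vc- libraries it was 3.71 to 5.14 with Tet1CD (mean 4.55) and 2.38 to 3.42 without (mean 2.91). The difference of the means was 2.61 in Vc+ and 1.64 in Vc-, and the arms did not overlap in either medium. The lowest library of each medium was shp53+shDnmt1. No p is given for this quantity, since it joins genes chosen with their results known. Whether values of different genes were put on a per-length scale is not given, so only differences of this quantity between libraries can be read.

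**Figure D2:**
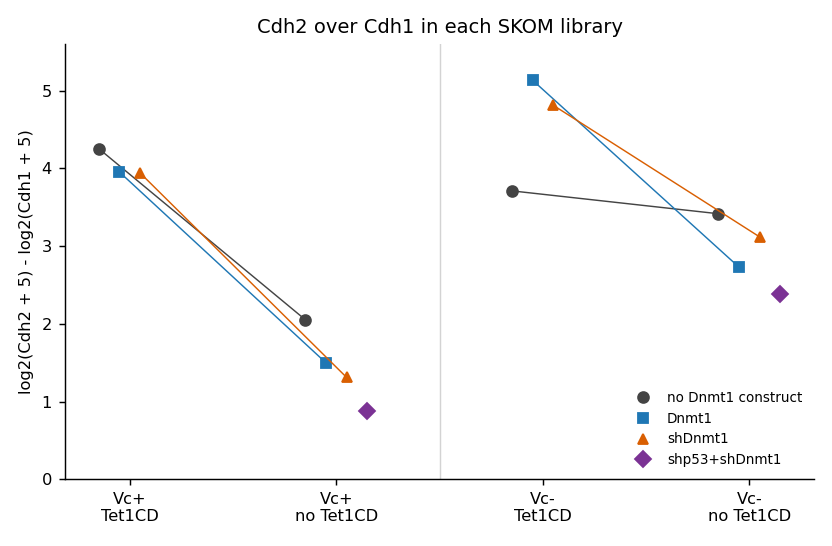
The difference log2(*Cdh2* + 5) minus log2(*Cdh1* + 5) in each of the 14 SKOM libraries, with lines joining libraries of the same medium and Dnmt1 construct with and without Tet1CD. Every Tet1CD library lies above its partner, and the smallest step is the Vc- pair without a Dnmt1 construct.

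Cadherin-11, the other cadherin of fibroblasts, went with Tet1CD in vitamin C. In Vc+ cells *Cdh11* had 1853 with Tet1CD, 1926 with Tet1CD+Dnmt1 and 1317 with Tet1CD+shDnmt1, against 830 with Dnmt1, 930 with shDnmt1, 661 with shp53+shDnmt1 and 1140 in the control. In Vc- cells it had 1525, 1718 and 1465 in the Tet1CD, Tet1CD+Dnmt1 and Tet1CD+shDnmt1 libraries, against 1525 with Dnmt1, 1491 with shDnmt1, 1131 with shp53+shDnmt1 and 1927 in the control. The Vc+ arms did not overlap, and in Vc- the control was the highest library of all. *Cdh11* rose by 0.80 ± 0.14 in Vc+ (limma, adjusted p = 0.00683). The Vc- effect was -0.06 ± 0.10, with a 95% interval from -0.29 to 0.16 (adjusted p = 0.691). Their difference was 0.87 ± 0.19 (adjusted p = 0.0165), but this call ended without any of 6 libraries (the control, Tet1CD, shDnmt1 and Tet1CD+shDnmt1 libraries of Vc- and the Dnmt1 and Tet1CD+Dnmt1 libraries of Vc+), with values of 0.66 to 0.89 and adjusted p between 0.0508 and 0.0768. The additive effect over both media, 0.37 ± 0.16, did not pass (limma, adjusted p = 0.0759). It passed without the Vc- control (0.45, adjusted p = 0.048) or the Vc- Tet1CD library (0.49, adjusted p = 0.0143), and was 0.25 without the Vc+ Tet1CD+Dnmt1 library. Pairs were higher with Tet1CD in 4 of 6, and the exact sign-flip p was 0.1875.

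*Cdh7* was listed at 0 in all 3 Tet1CD libraries of the Vc+ table, against 84 with Dnmt1, 87 with shDnmt1, 86 with shp53+shDnmt1 and 90 in the control. In Vc- cells it had 26 with Tet1CD, 0 with Tet1CD+Dnmt1 and 13 with Tet1CD+shDnmt1, against 46 with Dnmt1, 31 with shDnmt1, 53 with shp53+shDnmt1 and 35 in the control. The arms did not overlap in either medium, and the 4 Vc+ libraries without Tet1CD lay within a narrow range. No fold is given for Vc+, because a value of 0 in a normalized table gives no floor. *Cdh7* was lower with Tet1CD in 6 of 6 matched pairs. In both tables, however, it reached the listed level of 32 only through libraries without Tet1CD (4 of 4 in Vc+ and 3 of 4 in Vc-). Its direction thus followed largely from the listing. Neither the pairs nor the separation of the arms is read as support, and no test is given.

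*Cdh19* was listed without vitamin C only. It had 37 with Tet1CD, 38 with Tet1CD+Dnmt1 and 37 with Tet1CD+shDnmt1, against 0 with Dnmt1, 6 with shDnmt1, 0 with shp53+shDnmt1 and 10 in the control. The 2 arms did not overlap, and the Tet1CD libraries were nearly equal. *Cdh19* reached the listed level of 32 through the Tet1CD libraries only, so its direction was fixed by the listing and no test is given. Of 12 Schwann cell and neural crest markers, 3 were listed in Vc-, and their summed value was 202 to 215 with Tet1CD and 241 to 268 without it. This sum includes *Ngfr*, whose direction was favoured by the listing. *Mbp*, a myelin protein, rose by 0.45 ± 0.09 over both media (limma, adjusted p = 0.00276). *Gap43*, also among the 3, had an effect of -0.18 ± 0.16 over both media (adjusted p = 0.395). In limma with medium by construct products, the Vc- effect of *Mbp* was 0.48 ± 0.15 and did not pass (adjusted p = 0.0656). In that fit *Gap43* fell in Vc- by 0.49 ± 0.10 (adjusted p = 0.0201). *Ngfr*, the neurotrophin receptor of neural crest cells, was listed through libraries without Tet1CD only, with 10 to 14 with Tet1CD against 22 to 56 without in Vc+, and 13 to 21 against 13 to 38 in Vc-.

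The planar polarity cadherin *Celsr1* separated by Tet1CD in vitamin C and not without it. In Vc+ cells it had 29 with Tet1CD, 43 with Tet1CD+Dnmt1 and 37 with Tet1CD+shDnmt1, against 187 with Dnmt1, 164 with shDnmt1, 166 with shp53+shDnmt1 and 153 in the control. In Vc- cells it had 56 with Tet1CD, 45 with Tet1CD+Dnmt1 and 68 with Tet1CD+shDnmt1, against 44 with Dnmt1, 81 with shDnmt1, 81 with shp53+shDnmt1 and 46 in the control. In Vc+ every library without Tet1CD was far above every library with it, and the Vc- arms overlapped. *Celsr1* fell by 2.07 ± 0.12 in Vc+ (limma, adjusted p = 0.000273). The effect in Vc- was 0.02 ± 0.14, with a 95% interval from -0.31 to 0.34 (adjusted p = 0.948). The difference was -2.09 ± 0.19 (adjusted p = 0.000339) and still passed with any single library left out. The additive effect of -1.03 ± 0.33 (adjusted p = 0.0244) averages these unlike effects; it ended without any of the 6 Vc+ libraries that form pairs (the 3 with Tet1CD, and Dnmt1, shDnmt1 and the control), at -0.83 to -0.96 with adjusted p between 0.0597 and 0.0693, and the exact sign-flip p was 0.1875.

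**Figure D3:**
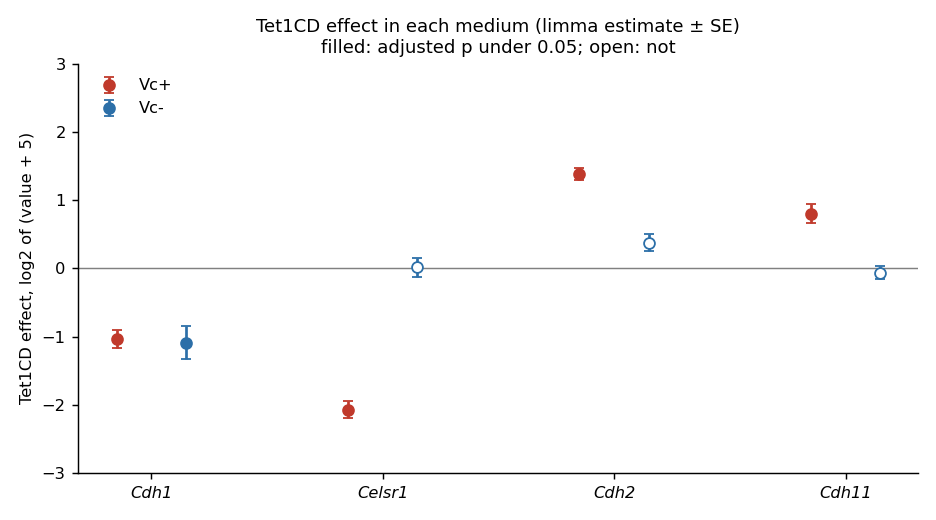
Tet1CD effect on 4 members fitted within the Vc+ and the Vc- table, as a limma estimate with its SE on the log2(value + 5) scale; filled points passed an adjusted p under 0.05. *Cdh1* is lower by a like amount in both media, and *Celsr1*, *Cdh2* and *Cdh11* passed in Vc+ only; *Cdh7* and *Cdh19* are left out because they were listed through 1 arm only.

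The other constructs moved no member past the threshold. Over both media, 0 of 15 effects of shDnmt1, Dnmt1 and shp53 on the 5 shared genes passed (limma, lowest adjusted p = 0.592; 0 at an unadjusted p under 0.05), and 0 of 15 differences between media passed (1 at an unadjusted p under 0.05, *Celsr1* with Dnmt1). Fitted within each medium, 0 of 15 effects passed in Vc+ and 0 of 18 in Vc-, with 3 and 2 at an unadjusted p under 0.05 (limma). Few genes of any kind passed: over both media 0.0% rose and 0.0187% fell with shDnmt1, 0.0% and 0.0% with Dnmt1, and 0.0% and 0.00934% with shp53. For shp53 alone, 0.0166% fell and 0.0% rose in Vc+, 0.0839% fell and 0.0373% rose in Vc-, and 0.0373% had a lower effect in Vc+ than in Vc-; shDnmt1 and Dnmt1 had no such gene. *Cdh2* and *Cdh11* were lowest in the shp53+shDnmt1 library of each medium, with fitted shp53 effects of -0.45 ± 0.29 (adjusted p = 0.592) and -0.38 ± 0.25 (adjusted p = 0.596). Each shp53 estimate rests on 1 library per medium.

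Among other classical cadherins, 6 of 15 were fitted over both media and 5 of these were listed through both arms; 1 rose and 1 fell, with a median effect of -0.11 against -0.04 over all 10711 genes. Such counts stand beside the 20.3% of all genes that rose and the 24.9% that fell, and 1 of 5 is near both. *Cdh6*, a cadherin of kidney and neural crest, rose by 0.45 ± 0.11 (limma, adjusted p = 0.00798). *Cdh20* fell by 0.65 ± 0.11 (adjusted p = 0.000914), with 55 to 58 with Tet1CD against 95 to 121 without in Vc+. *Cdh8*, a neuronal cadherin, was listed through libraries without Tet1CD only, with 0 to 48 with Tet1CD against 66 to 102 without in Vc+, and 16 to 59 against 49 to 73 in Vc-. None of the 5 differed in effect between media past the threshold (limma).

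Of 21 cadherin-related and atypical cadherins 8 were fitted, 7 of them listed through both arms, of which 3 rose and 1 fell (median 0.20). *Celsr2*, the close relative of *Celsr1*, had 132 to 173 with Tet1CD against 374 to 491 without in Vc+, and 128 to 214 against 144 to 244 in Vc-. Like *Celsr1* it fell in Vc+, by 1.35 ± 0.10 (limma, adjusted p = 0.000537), and had an effect of 0.01 ± 0.09 in Vc- (adjusted p = 0.967); the difference was -1.35 ± 0.14 (adjusted p = 0.000709). The calsyntenins *Clstn2* and *Clstn1*, found at synapses and in vesicle transport, rose by 0.96 ± 0.18 and 0.20 ± 0.07 (adjusted p = 0.00167 and 0.0319), and the giant cadherin *Fat1* rose by 0.45 ± 0.15 (adjusted p = 0.0319). Over both media the calls of *Celsr2* (-0.67 ± 0.22, adjusted p = 0.0272), *Fat1* and *Clstn1* were not stable to leaving out a library. *Celsr2* ended without any of the 6 paired Vc+ libraries (-0.53 to -0.64), *Fat1* without the Vc- Dnmt1 library or any paired Vc+ library but Tet1CD+shDnmt1 (0.31 to 0.45), and *Clstn1* without any of the 6 paired Vc- libraries, the Vc+ control or the Vc+ shDnmt1 library (0.17 to 0.20).

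Desmosomal cadherins, which join epithelial cells to keratin filaments, were mostly unlisted: 2 of 9 were fitted, 1 of them listed through both arms. This was *Dsc2*, which did not pass over both media (0.17 ± 0.08, limma, adjusted p = 0.111). *Dsc3* was listed in Vc- through libraries without Tet1CD only, so no test that uses its Vc- values is given. Within Vc+ *Dsc3* rose by 1.14 ± 0.22 (limma, adjusted p = 0.00904), with 60 to 74 with Tet1CD against 20 to 39 without. Of 11 non-clustered protocadherins 8 were tested, of which 1 rose and 3 fell (median -0.02). *Pcdh1* rose by 0.72 ± 0.23 (adjusted p = 0.0222), with a difference between media of 1.30 ± 0.16 (adjusted p = 0.00149) and an effect of 1.37 ± 0.12 in Vc+; its call over both media ended without any of the 6 paired Vc+ libraries (0.57 to 0.67). *Pcdh17*, *Pcdh7* and *Pcdh10*, all adhesion molecules of the nervous system, fell by 0.42 ± 0.07, 0.33 ± 0.07 and 0.21 ± 0.06 (adjusted p = 0.000767, 0.00292 and 0.0149).

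**Figure D4:**
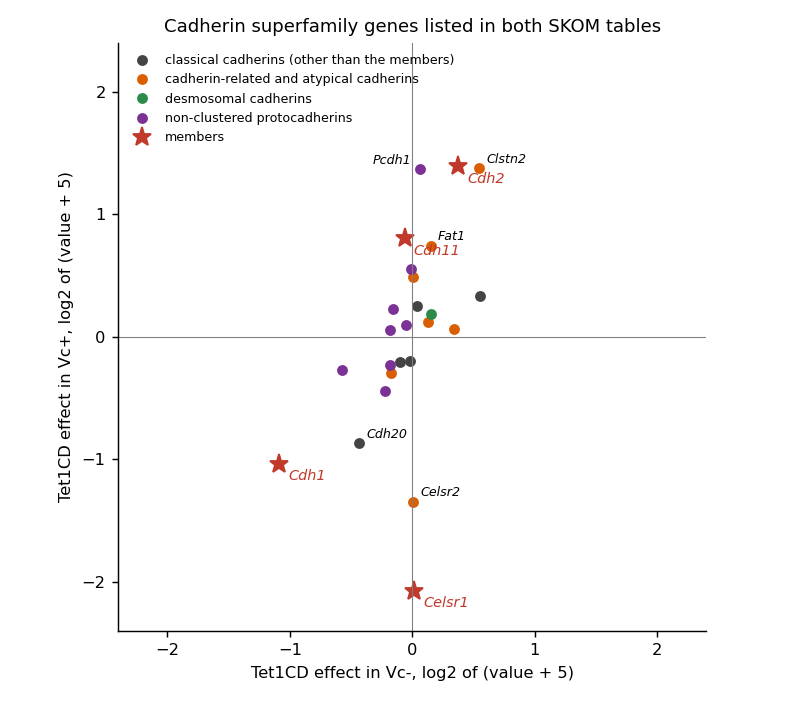
Tet1CD effect within the Vc+ table against that within the Vc- table, log2(value + 5), for cadherin superfamily genes listed in both; stars are members and colours mark the lists. *Celsr1* and *Celsr2* lie low on the vertical axis near 0 on the horizontal axis, *Cdh2*, *Pcdh1* and *Clstn2* lie high, and *Cdh1* is low on both; genes listed through 1 arm only, *Cdh7* among them, are left out.

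Of the catenins and other junction partners, 18 of 21 were tested, of which 5 rose and 4 fell (median 0.14), near the 20.3% and 24.9% of all genes. Vinculin (*Vcl*), which reinforces junctions under tension, rose by 0.67 ± 0.11 (limma, adjusted p = 0.00103), the receptor phosphatase *Ptprm* by 0.55 ± 0.09 (adjusted p = 0.000855) and plakoglobin (*Jup*) by 0.54 ± 0.10 (adjusted p = 0.00148), while *Ctnnal1*, a catenin-like protein, fell by 0.52 ± 0.10 (adjusted p = 0.00228). Of 17 genes for cadherin processing and trafficking, 14 were tested, and 9 rose and none fell (median 0.27). Among them were the membrane proteases *Adam9* and *Adam10*, of which Adam10 is known to cut E- and N-cadherin at the cell surface (0.60 ± 0.13 and 0.58 ± 0.08, adjusted p = 0.00309 and 0.000371). The endocytic adaptor *Numb* rose by 0.50 ± 0.08 (adjusted p = 0.000824) and *Psen2*, a subunit of gamma-secretase, by 0.42 ± 0.11 (adjusted p = 0.00997).

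Transcriptional repressors of E-cadherin were tested for 9 of 12 genes, of which 3 rose and 1 fell (median 0.20). *Snai1* (Snail) rose by 0.65 ± 0.09 (limma, adjusted p = 0.000443), with 162 to 236 with Tet1CD against 96 to 120 without in Vc+, and 88 to 103 against 59 to 71 in Vc-. *Zeb1* and *Zeb2* rose by 0.41 ± 0.11 and 0.41 ± 0.09 (adjusted p = 0.00997 and 0.00434), and *Tcf3* fell by 0.56 ± 0.10 (adjusted p = 0.00117). Fitted within Vc+ cells, 6 of 10 rose and 1 fell, where 20.7% of all genes rose and 23.6% fell; *Foxc2*, 1 of the 6, was listed through the Tet1CD libraries only. Within Vc- cells 2 of 9 rose and 1 fell, where 7.25% of all genes rose and 7.38% fell, so that fewer calls in Vc- went with fewer calls among all genes. Of 15 regulators of epithelial transcription and splicing, 5 were fitted, 4 of them listed through both arms, of which 1 rose and 3 fell (median -0.42). The epithelial factor *Ehf* fell by 1.10 ± 0.28 (adjusted p = 0.00798), with 61 to 111 with Tet1CD against 224 to 368 without in Vc+. The splicing regulator *Esrp2* and the junction regulator *Grhl1* fell by 0.42 ± 0.13 and 0.42 ± 0.15 (adjusted p = 0.0233 and 0.0359), and *Klf5* rose by 0.40 ± 0.12 (adjusted p = 0.0149). The *Esrp2* call ended without the Vc- Tet1CD+Dnmt1 library or the Vc+ Dnmt1, shDnmt1 or Tet1CD+shDnmt1 library (-0.32 to -0.38). That of *Grhl1* ended without the Vc- Dnmt1 or Tet1CD+Dnmt1 library or any paired Vc+ library but the control (-0.33 to -0.42).

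Beside *Celsr1*, 17 of 20 planar polarity genes were fitted over both media, 15 of them listed through both arms, of which 1 rose and 3 fell (median 0.03). *Vangl2*, a membrane partner of Celsr1 in this pathway, was listed through libraries without Tet1CD only; it had 18 to 25 with Tet1CD against 62 to 78 without in Vc+, and 24 to 37 against 34 to 39 in Vc-. *Scrib*, a polarity scaffold, fell by 0.43 ± 0.08 (limma, adjusted p = 0.00189), *Fuz*, a cilium and polarity effector, by 0.30 ± 0.09 (adjusted p = 0.0146) and the Wnt5a receptor *Ror2* by 0.27 ± 0.09 (adjusted p = 0.0286). The *Ror2* call ended without any of the 6 paired Vc+ libraries (-0.23 to -0.26).

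Markers of cell types moved with the same construct. Of 30 mesenchymal markers 29 were fitted, 28 of them listed through both arms, and 23 rose and none fell (median 0.52). All listed mesenchymal markers (30 in Vc+, 29 in Vc-) summed to 151615 to 169191 with Tet1CD against 67759 to 116062 without in Vc+. In Vc- the sum was 125957 to 130153 against 81951 to 112040. The Vc- sum includes a marker listed through libraries without Tet1CD only. The collagen *Col5a2* rose by 1.11 ± 0.22 (limma, adjusted p = 0.00208), and the collagen cross-linking enzymes *Lox* and *Loxl2* by 0.99 ± 0.20 and 0.84 ± 0.14 (adjusted p = 0.00245 and 0.000851). The matricellular protein *Thbs1* also rose (adjusted p = 0.000417), but it was at the highest value of its table in every Tet1CD library, a value shared by 10 genes, so the fitted 1.16 ± 0.16 is limited by that ceiling. *Vim* stood at the ceiling in all 7 Vc- libraries and 2 Vc+ libraries without Tet1CD, and *Acta2* in 6 Vc- libraries, so the sums are limited by it too. Of 24 epithelial markers 10 were fitted, 9 of them listed through both arms, of which 2 rose and 5 fell (median -0.30). All listed epithelial markers (11 in Vc+, 10 in Vc-) summed to 7308 to 8195 with Tet1CD against 8969 to 11451 without in Vc+. In Vc- the sum was 5365 to 5793 against 5723 to 7807. Both sums include *Cldn3*, whose direction was favoured by the listing. The adhesion molecule *Epcam* fell by 1.01 ± 0.27 (adjusted p = 0.00944), *Cd24a* by 0.69 ± 0.12 (adjusted p = 0.00124) and the protease inhibitor *Spint2* by 0.55 ± 0.18 (adjusted p = 0.0272). *Spint2* lost its call without any paired Vc+ library but the control (-0.43 to -0.51). The tight junction protein *Cldn3*, listed through libraries without Tet1CD only, had 14 to 28 with Tet1CD against 73 to 136 without in Vc+, and 20 to 28 against 27 to 61 in Vc-.

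Macrophage and leukocyte markers also rose with Tet1CD: 4 of 12 were fitted, and the 3 listed through both arms all rose (median 1.64). These 3 were *Laptm5* (1.90 ± 0.31), *Itgam* (1.64 ± 0.27) and *Cd68* (1.64 ± 0.32), with limma adjusted p values of 0.000797, 0.000878 and 0.00194. All listed macrophage markers (5 in Vc+, 4 in Vc-) summed to 2449 to 3250 with Tet1CD against 338 to 493 without in Vc+. In Vc- the sum was 633 to 735 against 302 to 400. Both sums include markers listed through the Tet1CD libraries only, whose direction was favoured by the listing. *Ptprc*, listed through the Tet1CD libraries only, had 45 to 50 with Tet1CD against 0 to 27 without in Vc+, and 36 to 44 against 0 to 13 in Vc-. Of 8 endothelial markers 2 were tested: *Emcn* rose by 0.59 ± 0.13 (adjusted p = 0.00371), and *Tek* fell by 0.31 ± 0.10 (adjusted p = 0.0198) but not without the Vc+ Dnmt1, Tet1CD+Dnmt1, control or shDnmt1 library (-0.26 to -0.30). The myogenic marker *Des* rose by 1.43 ± 0.36 (adjusted p = 0.00749), as the 1 of 7 that was tested. Of 9 neural progenitor markers 4 were tested, and *Nes* rose by 0.68 ± 0.14 (adjusted p = 0.00276), while *Map2* rose by 0.25 ± 0.09 (adjusted p = 0.0446) and lost its call without any of 10 libraries (0.20 to 0.26): all paired libraries but the Vc- control and the Vc- Tet1CD library. No listed marker of these lists was at 0 in all libraries of an arm. In bulk RNA, fewer cells of a type and less RNA per cell cannot be told apart, and the part of these cell types in the cadherin values was not tested.

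For each member the 3 genes with the most alike pattern over the 14 SKOM libraries (the 7 Vc- libraries for *Cdh19*) were taken by Pearson's r of log2(value + 5) centred within each table. They came from the other genes with a mean value of at least 50, which were 9940 for *Cdh7*, 9341 for *Cdh19* and 9939 for each of the other members. Since the libraries share constructs and the tables share their scale, these are descriptions. *Cdh7* and *Cdh19* were listed through 1 arm only, so their r values in part restate the split by Tet1CD that listed them. For *Cdh1* they were *Wdr4* (0.97), *Mrps2* (0.97) and *Gpn1* (0.96), for *Cdh2* they were *Pde8a*, *Gpr126* and *Capg* (0.99 each), and for *Cdh11* they were *Cav1* (0.99), *Wnt5a* (0.98) and *Ass1* (0.98). For *Cdh7* they were *Peo1* (0.98), *Sin3a* (0.98) and *Bcl11a* (0.97). For *Celsr1* the leading gene was *Celsr2* (0.98), before *Klf4*, one of the 4 delivered factors (0.97), and *Cpsf7* (0.97). The part of the *Klf4* level in the *Celsr1* values was not tested. For *Cdh19* they were *Shroom4*, *Cers4* and *Wbp1l* (0.99 each). Between members, r was -0.84 for *Cdh1* and *Cdh2*, -0.94 for *Cdh2* and *Cdh7*, -0.90 for *Cdh2* and *Celsr1*, and 0.87 for *Cdh2* and *Cdh11*.

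In MEFs without the 4 factors, the 1 library labelled Tet1CD did not have more N-cadherin RNA than the control. *Cdh2* had 2227 with Tet1CD, 3238 with Dnmt1, 3526 with shDnmt1, 3598 with shp53 and 3238 with shp53+shDnmt1, against 3238 in the control. *Cdh11* had 4246 with Tet1CD, 6111 with Dnmt1, 6680 with shDnmt1, 3981 with shp53 and 3526 with shp53+shDnmt1, against 6111 in the control. When each library's values were sorted, 2.57% of ranks held another value than in the control in the Dnmt1 library and 6.71% in the shp53+shDnmt1 library, against 35.8% with Tet1CD and 97.1% in the 5C library, so exactly equal values can recur between the first libraries named. With 1 library per combination there is no test: the Tet1CD library differed from the control by -0.54 for *Cdh2* and -0.52 for *Cdh11* on the log2 scale, under the 2-fold that 2.29% of 11151 genes passed upward and 2.13% downward. Leaving the 5C library aside, *Cdh11* was lowest in both shp53 libraries, by -0.62 for shp53 against the control and -0.92 for shp53+shDnmt1 against shDnmt1, 2 ratios that share no library; 3.25% and 3.62% of genes were more than 2-fold higher in these ratios, and 4.53% and 3.4% lower.

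*Cdh19* in MEFs had 37 with Tet1CD, 15 with Dnmt1, 12 with shDnmt1, 40 with shp53 and 0 with shp53+shDnmt1, against 14 in the control. The Tet1CD to control ratio was 1.14 on the log2(value + 5) scale, and 1.34 or 0.75 with 1 or 20 added instead, so it crosses 2-fold with the constant. The Tet1CD library was above its control, but the shp53 library was as high. *Cdh19* reached the listed level of 32 in these libraries only. It was thus listed in MEFs because they were high, and no direction is read from this ratio. The library labelled 5C had 859 for *Cdh2*, 3311 for *Cdh11* and 25 for *Cdh19*, with log2 ratios to the MEF control of -1.91, -0.88 and 0.66; 20.3% of all genes were more than 2-fold higher and 27.9% lower in it, and macrophage markers summed to 5148 there, against 107 to 1027 in the MEF libraries without Tet1CD and 1461 with it. What part those cells have in its cadherin values was not tested.

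**Figure D5:**
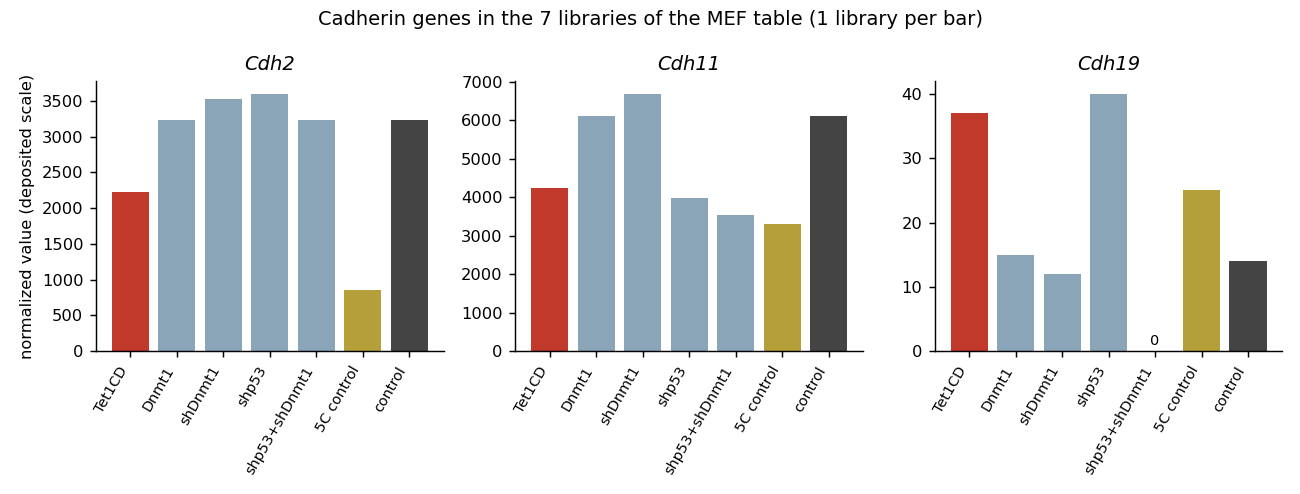
Values of *Cdh2*, *Cdh11* and *Cdh19* on the deposited scale in the 7 libraries of the MEF table, with 1 bar per library and the control on the right. *Cdh2* is low with Tet1CD and in the 5C library, and *Cdh11* is low with Tet1CD, in both shp53 libraries and in the 5C library.

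Vitamin C itself was described by pairs of libraries with the same constructs, Vc+ over Vc-, each log2 ratio being centred on the median of all 10711 shared genes. That median was 0.52 to 0.57, a shift between tables normalized apart, so these are not tests. *Cdh11* was lower in Vc+ in 7 of 7 pairs, by a median of -1.24, and was 1 of the 0.215% of genes with the same direction in 7 pairs and a median past 2-fold downward (0.392% upward); without centring its median was -0.68, short of 2-fold. *Cdh2* had ratios of -0.32 to 0.53 in the 3 Tet1CD pairs and -1.14 to -0.94 in the 4 others. The ratios of *Celsr1* were -1.37 to -0.58 in the Tet1CD pairs and 0.41 to 1.40 in the others. *Cdh1* was higher in 6 of 7 pairs, with a median of 0.38 (0.94 without centring).

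Against MEFs with the same constructs, both fibroblast cadherins were lower in SKOM cells in 5 of 5 pairs. The centred log2 ratio of *Cdh2* had a median of -2.49 for Vc+ over MEF and -1.45 for Vc- over MEF, and that of *Cdh11* a median of -2.72 and -1.39. Genes that were lower in this way in every pair, with a median past 2-fold, made up 10.8% of 10777 genes for Vc+ and 7.46% of 10242 for Vc-, against 6.72% and 6.02% higher. The Tet1CD pair differed least in each: for *Cdh2* it was -0.20 in Vc+ and -0.74 in Vc-, and for *Cdh11* -1.43 and -1.19. *Cdh19*, listed in Vc- and MEF, had a median of -0.07. *Cdh1*, *Cdh7* and *Celsr1* were not listed in the MEF table and have no such ratio.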

How the data were processed

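RNA was sequenced from 21 mouse libraries in 3 tables of 7. Per the labels' protocols, Trizol was used for extraction and a TruSeq RNA kit for library preparation; per the submitters' processing notes, Bowtie, RSEM and the build mm10 were used, without versions or roles. In unit terms each deposited value is a score, a whole number that the authors had normalized within each table. Against the sorted values of the table's control, 1.38% to 15.0% of ranks held another value in the other SKOM libraries and 2.39% to 12.0% in MEF libraries with Dnmt1, shDnmt1 or shp53 constructs, against 35.8% with Tet1CD and 97.1% in the 5C library. Such scores carry no depth, and no counting error or floor was computed. How they were normalized and filtered is not given in the sources used here. Every gene had a value of at least 32 in 2 or more libraries of its table; a gene that reached this only with or only without Tet1CD in a SKOM table is given without a Tet1CD test there. All value columns were used.

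Each library's group comes from its title (the spelling Dmnt1 in a title was read as Dnmt1). On the scale log2(value + 5), genes whose mean value reached 10 were fitted with limma 3.58.1 (intensity trend) in R 4.3.3. Adjusted p-values are Benjamini-Hochberg over all genes fitted, with a threshold of 0.05. Residual degrees of freedom were 8 in the additive model over 14 SKOM libraries, 4 with medium by construct products, and 2 in each table's own fit. Matched pairs were tested by exact sign flips in Python 3.11.15. The code was tested on simulated data. Alternatives were pseudocounts of 1 and 20, other filters, no trend, equal totals, other model terms and leaving out each library.

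The members, the gene lists and the tests were chosen with earlier results of these data known. Named genes are the 6 members, up to 4 genes per list with the largest Tet1CD change past the threshold over both media (otherwise up to 2 with the smallest p), the 3 genes most like each member in pattern, and the targeted genes. *Foxc2*, *Vim*, *Acta2* and *Gap43* are named besides, where they limit a reading.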

Additional observations from a re-analysis of the deposited data

Results flagged for a closer look

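The effect of Tet1CD differed between media, by an interaction term tested in limma, for *Cdh2*, *Cdh11* and *Celsr1*, and not for *Cdh1*. The difference, Vc+ minus Vc-, was 1.01 for *Cdh2* and 0.87 for *Cdh11*, which were higher with Tet1CD in Vc+. It was -2.09 for *Celsr1*, which was lower with Tet1CD in Vc+. The call for *Cdh11* ended without any of 6 libraries. The difference is not given for *Cdh7*, which was listed through libraries without Tet1CD only. Of all 10711 genes, 8.57% had a higher and 8.28% a lower effect in Vc+ past the same threshold. Macrophage marker sums also separated more in Vc+ (2449 to 3250 with Tet1CD against 338 to 493 without) than in Vc- (633 to 735 against 302 to 400). The sums include markers listed through the Tet1CD libraries only, and the part of macrophages in these differences was not tested.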

How the results depend on the processing

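Over both media, *Cdh1* and *Cdh2* passed with Tet1CD in limma under every alternative run, as did *Cdh1*, *Cdh2*, *Cdh11* and *Celsr1* in Vc+ and the differences of *Cdh2* and *Celsr1* between media. With 20 added to the values in place of 5, the *Cdh1* difference between media, which passed in no fit, was -0.043. Without the intensity trend, *Cdh1* in Vc- was -1.09 (adjusted p = 0.0825), and 204 genes rose and 100 fell with Tet1CD in Vc-, against 777 and 791. With a Vc by Tet1CD term, *Cdh11* over both media was 0.37 and passed (adjusted p = 0.00291). Exact sign flips over 6 pairs left *Cdh2* (0.88, p = 0.0625) and *Celsr1* (-1.03, p = 0.1875) short of the threshold. The cause of these changes was not tested.

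Leaving out each library in turn also removes its pair and residual degrees of freedom. Over both media the effects then ran from 0.25 to 0.49 for *Cdh11* and from -1.23 to -0.83 for *Celsr1*. The differences between media ran from -0.26 to 0.45 for *Cdh1* and from 0.66 to 1.02 for *Cdh11*. In Vc- the effects ran from -1.49 to -0.78 for *Cdh1*, 0.21 to 0.56 for *Cdh2*, -0.18 to 0.073 for *Cdh11* and -0.10 to 0.14 for *Celsr1*. Counts of genes with a higher and a lower effect in Vc+ ran from 450 to 1148 and from 311 to 1173. In Vc+ the counts that rose and fell with Tet1CD ran from 1146 to 2537 and from 1049 to 2943, with the lowest values without the Dnmt1 or Tet1CD+Dnmt1 library. In Vc- they ran from 3 to 1158 and from 2 to 1202, with 3 and 2 without the Dnmt1 or Tet1CD+Dnmt1 library, so the 2-degree fit leans on single pairs there. None of 609 refitted effects of the other constructs on members passed in limma (lowest adjusted p = 0.0974), and 10 of the 47 named list genes with a reported fit lost their call in at least 1 refit, with no change of direction. The labels carry no replicate numbers, so pairs were matched on medium and constructs. Depth is unknown, so no limit from it can be given.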
